A study of Rattus norvegicus with 24 samples.

Results

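The genes described here encode copper enzymes that work outside the cell or inside secretory vesicles, and their RNA was measured in rat liver on diets low or adequate in copper and with less or more sucrose. They are the 8 genes Cp, Heph, Lox, Loxl1, Loxl2, Aoc3, Pam and Dbh, chosen by name, and every array probe that carries one of these names was taken. They had 10 probes, of 30367 probes and 26278 gene names on the array. A probe entered the tests if its signal was well above background, as marked by the scanner software, on at least 6 of the 24 arrays. With this rule 7 of the 8 genes and 9 of the 10 probes were kept, and Dbh was not.

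The samples were livers of 24 male Wistar rats, 1 array per rat, which were 6 months old when they started on purified diets, ate them for 12 weeks and were 9 months old at sampling. The study calls them a rat model of fatty liver disease not due to alcohol. The control diet held adequate copper (125 mg/kg) and 10% sucrose. The others held low copper (under 0.3 mg/kg) and 10% sucrose, adequate copper and 30% sucrose, or low copper and 30% sucrose, with starch and dextrin making up the carbohydrate on every diet and 6 rats on each. The sample labels call the adequate copper diets high copper, and the fat content of these livers is not analysed here.

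Copper enters these enzymes in the secretory pathway, where the pump ATP7A, or ATP7B in hepatocytes, moves it into the lumen, and each enzyme then uses it to oxidise or hydroxylate its substrate. Ceruloplasmin, made mostly by hepatocytes, and its membrane-bound relative hephaestin oxidise iron so that transferrin can carry it. Lysyl oxidase and its relatives start the crosslinking of collagen and elastin, the product of Aoc3 oxidises primary amines at the cell surface, and the enzymes encoded by Pam and Dbh act inside vesicles on peptide hormones and on dopamine. In copper deficiency ceruloplasmin protein without copper is secreted and soon degraded, so plasma activity is known to fall further than the RNA. The arrays measured RNA and gave no enzyme activity.

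Cp was the only one of the 8 with more than 1 probe, and its probes lie in different places of the gene. An upstream probe lies at chr2:105129670-105129729, a probe of the secreted transcript at chr2:105135264-105135323, and a probe that the array annotates to a transcript of the membrane form, held by a glycosylphosphatidylinositol (GPI) anchor, at chr2:105148774-105148833. All 3 match the plus strand of the rn4 build. The secreted probe was the brightest and stood for the gene. The probes of the lysyl oxidases are shown with them because Lox, but neither Loxl1 nor Loxl2, was called between diets; the difference between the 3 was not tested. They lie at chr18:47898302-47898361 (minus strand) for Lox, chr8:62088318-62088377 (minus strand) for Loxl1 and chr15:50067990-50068049 (plus strand) for Loxl2. They are given at their full 60 bases, except that the first 30 are shown for the secreted and GPI probes, all 5′ to 3′ in lower case as the array files give them.
Cp upstream: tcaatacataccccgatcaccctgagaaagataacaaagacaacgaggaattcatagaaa
Cp secreted: gttgaaggatgctctcggaaaatagagaaa
Cp GPI: ctttgcccctcaaaagctatattctaaatt
Lox: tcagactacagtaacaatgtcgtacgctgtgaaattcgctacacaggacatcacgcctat
Loxl1: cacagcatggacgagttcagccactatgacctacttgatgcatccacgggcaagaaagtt
Loxl2: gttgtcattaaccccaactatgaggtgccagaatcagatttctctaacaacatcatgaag

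No pair among the 10 probes shared a run of more than 8 bases. Probes were compared only with each other, so whether a probe also binds the transcript of a related gene was not tested. The other probes lie at chrX:84138506-84138565 for Heph, chr10:90364882-90364941 for Aoc3, chr9:96977460-96977519 for Pam and chr3:6069770-6069826 for Dbh, all on the plus strand of rn4. None of the 10 was saturated on any array.

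Levels are log2 signals relative to the array's 75th percentile, so a level of 0 equals that percentile, and levels of different probes cannot be ranked against each other. That percentile ran from 433 to 1284 signal units over the 24 arrays; the share of probes well above background was 59.9 to 73.4%. The arrays came on 3 slides of 8, and diets were unevenly spread over them. Slide 1 carried the 6 rats on low copper with 30% sucrose and rats 1 and 2 on adequate copper with 30% sucrose, slide 2 the other 4 of the latter and rats 1 to 4 on low copper with 10% sucrose, and slide 3 the remaining 2 and the 6 control rats. Copper diets meet on slides 1 and 3, and the sucrose levels of 1 copper diet never meet on a slide. With slide as a block, the sucrose levels are joined only through the other diets, with a larger error. Rat 5 on adequate copper with 30% sucrose and rat 2 on low copper with 10% sucrose stood apart in inflammatory genes, and values without this pair are given beside the results they touch.

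Differences between diets were tested with limma over all 18641 genes, with p-values adjusted by Benjamini-Hochberg and called at an adjusted p under 0.05. A p-value here sets a diet difference against the spread between rats within diets, taken over all 4 diets. Slide was not part of that fit. In whole liver, fewer cells of a type and less RNA per cell cannot be told apart. All 10 hepatocyte markers on a list that included Alb and Ttr were measured. Of these, 0 were called in any of the 6 comparisons. Over all genes 18.6% were called, in either direction, on low copper at 10% sucrose and 20.9% with 30% sucrose on adequate copper. The share was 20.8% in the copper by sucrose interaction and 0% in the other comparisons. With 30% sucrose on adequate copper 4 hepatocyte markers lay above 0 and 6 below. Cps1 (-0.64, adjusted p = 0.0764) and Cyp2e1 (-0.62, adjusted p = 0.0818) had the smallest p.

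Of the 7 measured genes, 2 were called between diets, and both in 1 comparison: on adequate copper, Cp was higher and Lox lower with 30% than with 10% sucrose. In that comparison 18.4% of all genes were called higher and 2.48% lower, so 1 of 7 in each direction stands beside a broad background. Neither the low copper diets nor the combination of copper and sucrose gave a call among the 7. The other 5 genes passed in 0 of the 6 comparisons.

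**Figure D1:**
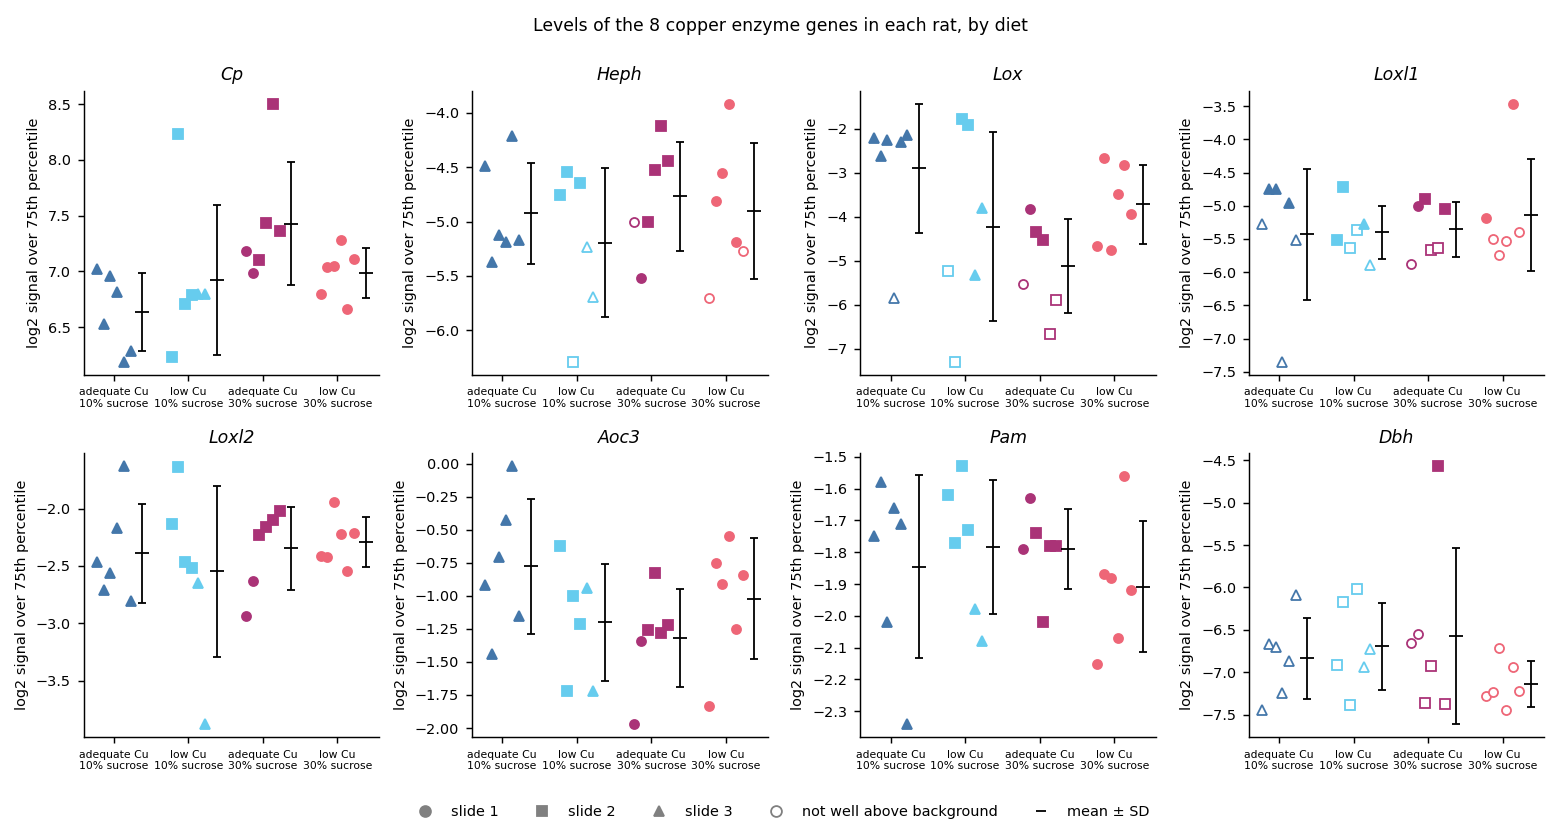
Each panel plots 1 gene, with the log2 signal relative to the array's 75th percentile on the vertical axis and the 4 diets across, a point for each rat, its shape giving the slide and an open point a signal not well above background; bars are mean ± SD over 6 rats. For Lox, 5 control rats lie close together between -2.63 and -2.15 and 1 far below at -5.86, Cp has 1 rat far above the others on each of 2 diets (8.50 and 8.23), and Dbh is open in all rats but 1.

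Cp is the main plasma ferroxidase of the liver. Its secreted probe ran from 6.19 to 7.02 in control rats (median 6.68), from 6.23 to 8.23 on low copper with 10% sucrose (median 6.79), from 6.66 to 7.28 on low copper with 30% sucrose (median 7.04) and from 6.99 to 8.50 on adequate copper with 30% sucrose (median 7.27). This is also the order of the diets by mean, and every neighbouring pair overlapped. All 24 rats were well above background, and both spots of the probe on an array differed by a median of 0.04.

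On adequate copper Cp rose by 0.79 with 30% sucrose (limma, SE 0.27, adjusted p = 0.0366), or 1.73-fold, with 6 of 6 rats above the control mean. The highest control rat (7.02) lay above the lowest rat on 30% sucrose (6.99), so the groups overlapped. The slide block gave 0.77 (SE 0.50) and no call (adjusted p = 0.9998), and a random slide block gave 0.75 (adjusted p = 0.136). Without the pair of rats it was 0.58 and called (adjusted p = 0.0175). Leaving out singly any of rats 4, 5 or 6 on adequate copper with 30% sucrose or control rats 2, 5 or 6 ended the call. The difference was then 0.58 to 0.81, with adjusted p from 0.0510 to 0.111. The call thus lay near the threshold, and it held when the first-named rat 5 was left out together with the other rat of the pair. It also ended with normexp background correction (0.76, adjusted p = 0.0524), quantile normalization (0.80, adjusted p = 0.0650), the authors' table (0.80, adjusted p = 0.0671), the replicate block (adjusted p = 0.0589) and the mean of the Cp probes (0.44, adjusted p = 0.0594).

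On low copper the difference with 30% sucrose was 0.06 (95% interval -0.49 to 0.61, adjusted p = 0.952). Low copper itself gave 0.29 at 10% sucrose (interval -0.26 to 0.84, adjusted p = 0.550) and -0.44 at 30% sucrose (interval -0.99 to 0.11, adjusted p = 0.563). Both copper differences were smaller without the pair of rats, at 0.03 and -0.22. The interaction, which tests whether the copper difference depended on sucrose, was -0.73 (SE 0.38, adjusted p = 0.178) and -0.25 without the pair. All 4 diets share 1 fit, and the comparisons at 10% sucrose and at adequate copper share the control rats.

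The upstream Cp probe followed the secreted one over the 24 rats (Pearson r = 0.91, Spearman rho = 0.85, permutation p = 1e-05 for each, the smallest the draws allow, adjusted 3e-05 over 3 probe pairs). Without the 2 rats farthest out r was 0.79, and within slides 1, 2 and 3 it was 0.72, 0.99 and 0.58. Control rats ran from 0.92 to 1.53 on this probe (median 1.03), rats on low copper with 10% sucrose from 0.45 to 2.48 (median 1.23), rats on low copper with 30% sucrose from 0.81 to 1.78 (median 1.52) and rats on adequate copper with 30% sucrose from 1.21 to 2.71 (median 1.62). Its difference with 30% sucrose on adequate copper was 0.63 (SE 0.27), in the direction of the secreted probe and not called (adjusted p = 0.106 over 21179 probes).

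The probe of the GPI-anchored form, the ferroxidase that cells such as macrophages and astrocytes keep at their surface, showed another pattern. Its levels were 1.24 to 1.59 in control rats (median 1.47), 0.60 to 1.77 on low copper with 10% sucrose (median 1.52), 1.31 to 1.61 on low copper with 30% sucrose (median 1.46) and 0.96 to 1.62 on adequate copper with 30% sucrose (median 1.38). The difference with 30% sucrose on adequate copper was -0.11 (95% interval -0.42 to 0.20, adjusted p = 0.653), and the probe had no call in the 6 comparisons. It has 1 spot on the array where the other members have 2.

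The gap between both transcript ends was examined after these values were seen, as the secreted minus the GPI probe within each array, which removes any difference in scaling between arrays. It lay between 4.91 and 5.53 in control rats and between 5.56 and 7.30 in rats on adequate copper with 30% sucrose, and these ranges did not overlap. The change was 0.90 (means 5.20 ± 0.28 and 6.10 ± 0.62, SD, n = 6 each; exact two-sided permutation p = 0.00217, 0.00866 after adjustment over 4 comparisons), and 0.66 without the pair of rats (exact p = 0.00433). On slides, the 2 rats of this diet on slide 1 had gaps of 5.78 and 5.56, and the 4 on slide 2 had 6.14, 5.81, 7.30 and 6.00, while all control rats lay on slide 3. Slide and sucrose cannot be told apart for this change. It was 0.89 with quantile normalization and 0.88 in the authors' table (exact permutation p = 0.0152 for each). Ranges that do not overlap would give 0.00217, so the 2 diets overlapped under both alternatives.

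At 30% sucrose the gap was smaller on low copper, at 5.35 to 5.70 (mean 5.52 ± 0.14, SD, n = 6), a change of -0.58 (exact permutation p = 0.00866, 0.0173 adjusted) and -0.34 without the pair (exact p = 0.0152). The exact permutation p was 0.0628 with quantile normalization and 0.0758 in the authors' table. Both diets meet on slide 1, where the change was -0.16 (6 against 2 rats, exact permutation p = 0.25, with 0.0357 the smallest possible). The other gaps did not differ beyond the spread: low copper at 10% sucrose gave 0.36 (exact p = 0.602, n = 6 each), with gaps from 4.45 to 7.62, and 30% sucrose on low copper gave -0.04 (exact p = 0.987), which turned to 0.38 without the pair (exact p = 0.0217, 0.0289 adjusted).

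**Figure D2:**
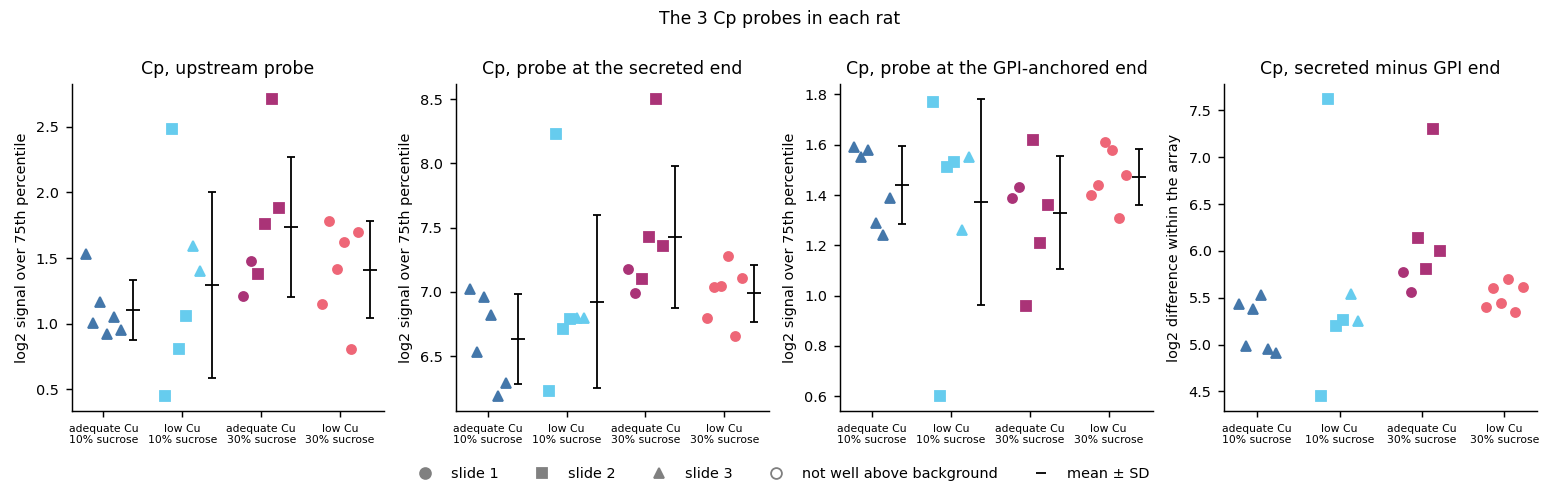
The first 3 panels plot the upstream, secreted and GPI probes of Cp as log2 signal relative to the array's 75th percentile by diet, a point per rat with its slide as shape and bars of mean ± SD over 6 rats; the last panel plots the secreted minus the GPI probe within each array in log2 units. The upstream and secreted probes share their 2 highest rats, the GPI probe is lowest in 1 of them (0.60), and in the last panel adequate copper with 30% sucrose (5.56 to 7.30) lies above the control rats (4.91 to 5.53).

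The secreted and GPI probes had r = -0.47 over the 24 rats (permutation p = 0.0283) and rho = -0.10 (p = 0.628). Without the 2 rats farthest from the median, the pair named above, r was 0.01, so the relation rests on those rats. Within slides it was 0.68, -0.67 and 0.49 over 8 rats each.

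Heph encodes hephaestin, the ferroxidase best known from the gut wall, and its signal in these livers was near background. It was well above background in 6 of 6 control rats, 3 of 6 on low copper with 10% sucrose, 5 of 6 on adequate copper with 30% sucrose and 4 of 6 on low copper with 30% sucrose. The levels were -5.38 to -4.22 (median -5.15), -6.29 to -4.54 (median -4.99), -5.52 to -4.12 (median -4.76) and -5.70 to -3.92 (median -5.00) in the same order, and all diets overlapped. Over the 6 comparisons the 95% intervals of its differences spanned -0.92 to 1.05 and adjusted p was 0.663 or above.

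Lox encodes lysyl oxidase, the first-described enzyme of collagen and elastin crosslinking, and it varied more between rats of a diet than any other member. Its pooled SD within diets was 1.48, against a median of 0.32 over all measured genes, and higher than that of 99.8% of them. Control rats had -2.22, -2.63, -2.26, -5.86, -2.30 and -2.15, so 5 of them lay close together and rat 4 far lower. Rats on low copper with 10% sucrose had -5.23, -7.30, -1.78, -1.92, -5.33 and -3.81, which spread over most of the range seen. Rats on low copper with 30% sucrose ran from -4.75 to -2.67 (median -3.71), and rats on adequate copper with 30% sucrose from -6.66 to -3.82 (median -5.03).

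On adequate copper Lox was lower with 30% sucrose, by -2.22 (limma, SE 0.80, adjusted p = 0.0496), a difference of 4.67 times, with 6 of 6 rats below the control mean. The groups overlapped only through control rat 4, since the highest rat on 30% sucrose (-3.82) lay below each of the other 5 control rats. The probe was well above background in 3 of 6 rats on 30% sucrose and 5 of 6 control rats, so the size of the fall is uncertain: with a background correction that raises dim signals (normexp) it was -0.94 (adjusted p = 0.0474). The slide block gave -2.96 (SE 1.53, adjusted p = 0.9998), and a random slide block -2.30 (adjusted p = 0.131). Without the pair of rats it was -1.92 and no longer called (adjusted p = 0.0717). The call lies so near the threshold that leaving out 19 of the 24 rats, one at a time, ended it (adjusted p up to 0.123), including rats of the diets not compared. Without control rat 4 it was -2.81 (adjusted p = 0.0129).

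Low copper gave Lox differences of opposite sign at both sucrose levels, -1.33 at 10% sucrose (SE 0.80, adjusted p = 0.305) and 1.40 at 30% sucrose (SE 0.80, adjusted p = 0.549). Within slide 3 the difference at 10% sucrose was -1.67, and within slide 1 that at 30% sucrose was 0.95. The interaction was 2.73 (SE 1.13, adjusted p = 0.0885), not called in the fit over all rats. It was called without rat 3 (3.22, adjusted p = 0.0420) or rat 4 (3.19, adjusted p = 0.0440) on low copper with 10% sucrose, or without control rat 4 (3.32, adjusted p = 0.0276). Without the pair of rats it was 1.81 (adjusted p = 0.268). Of all genes 1.94% were called higher and 18.9% lower in the interaction, and 0 of the 7 members.

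Both spots of the Lox probe on an array differed by a median of 0.15 and at most by 1.48, and the highest and lowest of the 24 rats differed by 5.51, with the lowest values not well above background.

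Loxl1, whose product acts on elastic fibres, was dim. It was well above background in 2 of 6 rats on low copper with 30% sucrose and in 3 of 6 on each other diet. Levels ran from -7.35 to -4.75 in control rats (median -5.12), from -5.89 to -4.72 on low copper with 10% sucrose (median -5.44), from -5.88 to -4.90 on adequate copper with 30% sucrose (median -5.35) and from -5.74 to -3.47 on low copper with 30% sucrose (median -5.45). The 95% intervals of its differences spanned -0.94 to 1.31 over the 6 comparisons (adjusted p of 0.841 or above), so these data bound its changes only loosely.

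Loxl2, a relative that also crosslinks basement membrane collagen, was well above background in all 24 rats. Control rats ran from -2.81 to -1.63 (median -2.51), rats on low copper with 10% sucrose from -3.88 to -1.64 (median -2.49), rats on adequate copper with 30% sucrose from -2.94 to -2.02 (median -2.20) and rats on low copper with 30% sucrose from -2.54 to -1.94 (median -2.31). The diets overlapped throughout, and the 95% intervals spanned -0.71 to 0.99 (adjusted p of 0.732 or above).

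Low copper at 10% sucrose gave Loxl2 a difference of -0.16 over all rats and -0.88 within slide 3 (the slide-block value, SE 0.29, adjusted p = 0.598). That value rests on 2 rats on low copper, of which rat 6 had -3.88, the lowest level of Loxl2 in the study, and rat 5 had -2.65. Without rat 6 the difference over all rats was 0.11. The interaction was 0.21 over all rats, 1.37 with slide as a block (adjusted p = 0.223) and -0.05 without rat 6. With 30% sucrose on adequate copper Loxl2 was at 0.05 over all rats and at -0.81 with the slide block (SE 0.39, adjusted p = 0.9998).

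**Figure D3:**
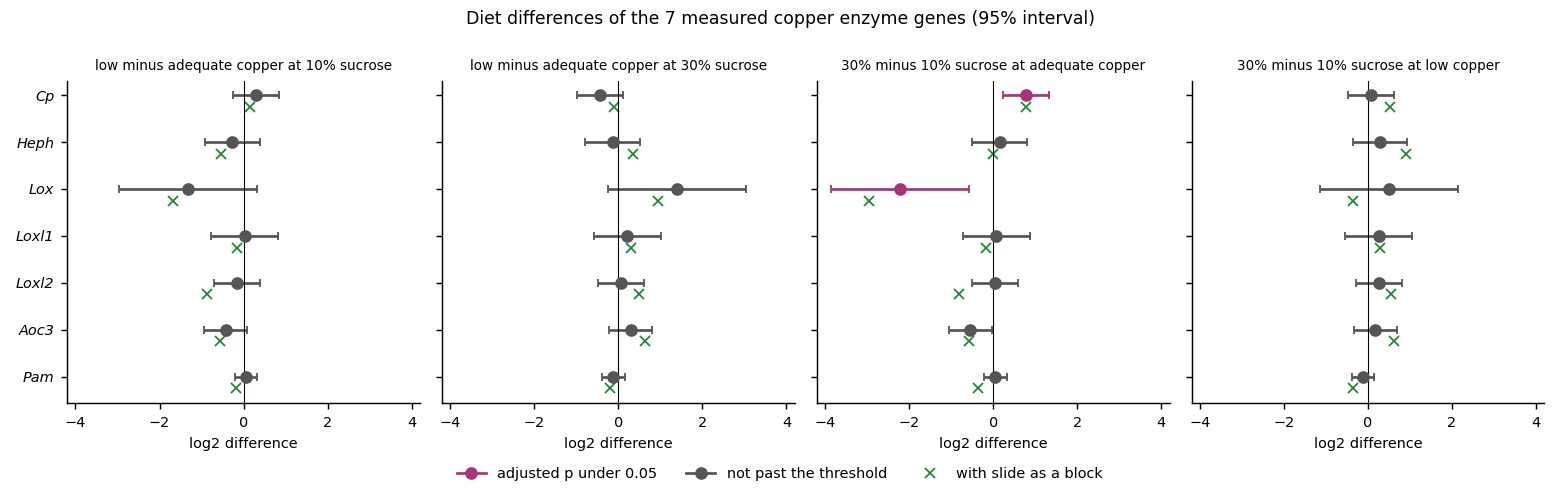
Each of 4 panels plots 1 comparison of diets (the interaction is not drawn), with the log2 difference on the horizontal axis, points and bars the difference and its 95% interval from limma over 24 rats, and crosses the difference with slide as a block. Cp (0.79) and Lox (-2.22) on adequate copper are the 2 differences called, and in these panels crosses lie outside the interval for Loxl2 at 10% sucrose (-0.88) and for Loxl2 (-0.81) and Pam (-0.35) on adequate copper.

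Aoc3 encodes vascular adhesion protein, an amine oxidase of endothelium, smooth muscle and fat cells. Its levels were -1.44 to -0.02 in control rats (median -0.82), -1.72 to -0.62 on low copper with 10% sucrose (median -1.10), -1.97 to -0.83 on adequate copper with 30% sucrose (median -1.27) and -1.83 to -0.55 on low copper with 30% sucrose (median -0.88). Control rats were highest by mean and rats on adequate copper with 30% sucrose lowest, with overlap between all diets. The difference with 30% sucrose on adequate copper was -0.54 (limma, SE 0.25, adjusted p = 0.129), with 6 of 6 rats below the control mean, and -0.57 with slide as a block.

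Low copper gave Aoc3 -0.42 at 10% sucrose (SE 0.25, adjusted p = 0.288) and 0.29 at 30% sucrose (SE 0.25, adjusted p = 0.663). Within slides 3 and 1 the same differences were -0.55 and 0.63. The interaction was 0.72 (SE 0.35, adjusted p = 0.154), with a 95% interval of -0.01 to 1.44, and 1.19 with slide as a block (adjusted p = 0.306). It was not called.

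Pam encodes the enzyme that amidates peptide hormones, and it was the steadiest member. Its pooled SD within diets was 0.22, below that of most genes (23.2% of genes had a lower one), and all 24 rats lay between -2.34 and -1.53. The median was -1.73 in control rats and -1.75 in those given low copper at the same sucrose level; with 30% sucrose it was -1.78 on adequate and -1.90 on low copper. The 95% intervals spanned -0.56 to 0.33 over the 6 comparisons (adjusted p of 0.529 or above), so for Pam the interaction was bounded at -0.56 and single diet differences more tightly, between -0.39 and 0.33. With 30% sucrose on adequate copper the slide block moved Pam from 0.06 to -0.35 (adjusted p = 0.9998).

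Dbh makes noradrenaline from dopamine in sympathetic nerve endings and adrenal chromaffin cells. Its probe was not well above background in 23 of 24 rats, with levels of -7.45 to -6.02 in them, and no difference is given for it. In rat 5 on adequate copper with 30% sucrose it stood at -4.57 and was well above background. Both spots of the probe differed by a median of 0.24.

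The copper comparisons gave no call for the members. At 10% sucrose 0 of 7 were called (3 above 0, 4 below, median -0.16; adjusted p from 0.288 to 0.974), while 18% of all genes were called higher and 0.595% lower (median 0.06). At 30% sucrose 0 of 7 were called (adjusted p from 0.549 to 0.947), and 0% of all genes, with 1839 of 18641 at an unadjusted p under 0.05 (limma). For the mean copper difference 0 of 7 and 0% of all genes were called, with 1640 at an unadjusted p under 0.05, and the members' differences lay between -0.20 for Heph and 0.12 for Loxl1. For 30% sucrose on low copper 0 of 7 and 0% were called as well, with 1786 at an unadjusted p under 0.05 and members from -0.12 for Pam to 0.51 for Lox. Within slides 1 and 3, where copper diets meet, an exact permutation test over 784 regroupings gave p from 0.156 for Pam to 0.934 for Loxl1 (adjusted p = 1 over all genes for each), with 0.00128 the smallest possible. Pam was the only one of the 7 whose slide differences had the same sign, -0.20 and -0.19.

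Other genes of the same pathways were taken from lists. Of 19 measured genes of copper handling, 1 was called on low copper at 10% sucrose, Steap2, a metalloreductase, which rose by 0.49 (SE 0.17, adjusted p = 0.0408), and the list's median was -0.10. Over all genes 18% were called higher in that comparison, so this count is below the background. Mt1a, a metallothionein that binds copper and zinc, was at -0.89 (adjusted p = 0.181; called at -1.13 without the pair of rats, adjusted p = 0.0116) and Ccs, the copper chaperone of superoxide dismutase, at -0.22 (adjusted p = 0.234). On adequate copper, 30% sucrose gave 1 call each way, beside 18.4% of all genes called higher and 2.48% lower. Steap2 rose by 0.47 (adjusted p = 0.0494) and Cox11, which inserts copper into cytochrome oxidase, fell by 0.34 (adjusted p = 0.0478). In the interaction, where 1.94% of all genes were called higher and 18.9% lower, Cutc, a proposed copper-binding protein, was called at 0.39 (adjusted p = 0.0477). None of these 4 calls held with the slide block (adjusted p of 0.586 or above) or without the pair of rats (adjusted p from 0.0563 to 0.149).

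Of 10 further secreted copper enzymes and their relatives, 6 were measured. Hephl1, a hephaestin relative, rose by 0.77 with 30% sucrose on adequate copper (SE 0.23, adjusted p = 0.0225; -0.04 in the slide-block fit), and it was the only call on the list in that comparison. Sod3, the copper and zinc superoxide dismutase of the extracellular space, was at -0.23 there (adjusted p = 0.332). Loxl4 was at -0.19 (adjusted p = 0.615) and Abp1 (now Aoc1), diamine oxidase, at 0.33 (adjusted p = 0.602). The interaction had 1 call, Hephl1 at -0.998 (adjusted p = 0.0345). Without the pair of rats Hephl1 was not called in either (adjusted p = 0.0609 and 0.0918). Over all genes 18.4% were called higher with 30% sucrose on adequate copper and 18.9% lower in the interaction. The count of 1 of 6 in each thus lay near the background.

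Among 22 measured partners of the lysyl oxidases, which are collagens, elastic fibre proteins and their regulators, 2 were called higher and 0 lower with 30% sucrose on adequate copper, the comparison in which Lox fell and 18.4% of all genes were called higher. The count thus lay below the background. Mfap4, a microfibril protein, rose by 0.71 (SE 0.18, adjusted p = 0.00791) and Col1a1, a chain of type I collagen, by 0.57 (SE 0.19, adjusted p = 0.0390). Elastin, Eln, was at 0.57 (SE 0.25, adjusted p = 0.118). The list's median was 0.20 and that of all genes 0.07. Mfap4 was also called on low copper at 10% sucrose, at 0.64 (adjusted p = 0.0137). In the interaction Mfap4 and Col1a1 were called lower (-0.93 each, adjusted p = 0.0124 and 0.0181). The slide block gave Mfap4, Col1a1 and Eln 0.49, 0.23 and 0.49 for 30% sucrose, none called, and Col1a1 lost its call there without the pair of rats (adjusted p = 0.0750). The other calls named here were lost with the slide block too, at an adjusted p of 0.836 for Mfap4 on low copper and of 0.506 and 0.387 for Mfap4 and Col1a1 in the interaction.

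Of 14 measured iron partners of the ferroxidases, 0 were called with 30% sucrose on adequate copper, the comparison in which Cp rose. Their median was 0.01, and over all genes 18.4% were called higher and 2.48% lower there. Tfrc, the transferrin receptor, was at 0.44 (adjusted p = 0.109), and Tfr2, which senses iron-loaded transferrin in hepatocytes, at -0.42 (adjusted p = 0.136). On low copper at 10% sucrose 1 was called, Ftmt, mitochondrial ferritin, which rose by 0.74 (adjusted p = 0.0177). Ftmt was at -0.02 in the slide-block fit, and 18% of all genes were called higher in that comparison. In the interaction 1 was called too, Ftmt at -1.055 (adjusted p = 0.0170), while 18.9% of all genes were called lower. The interaction call held without the pair of rats (adjusted p = 0.0326) but not with the slide block (-0.388, adjusted p = 0.5975).

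Cp is itself an acute phase gene, and 25 genes of the acute phase and its signals were measured. With 30% sucrose on adequate copper 3 of them rose: Cxcl1, a neutrophil chemokine, by 3.71, Lbp, which binds bacterial lipopolysaccharide, by 1.48, and Socs3, a brake on cytokine signalling, by 0.67 (adjusted p = 0.0147, 0.0202 and 0.0166, and 0.9998 for each with the slide block). Without the pair of rats they were at 3.42, 1.11 and 0.55 and still called (adjusted p = 0.0251, 0.00605 and 0.0425). Tnf, not called over all rats (1.64, adjusted p = 0.0515), was called without the pair (1.40, adjusted p = 0.0311). The list's median was 0.27, with 21 of 25 above 0, and its count of calls over all rats lay below the 18.4% of all genes called higher. Of 5 neutrophil markers 4 were called higher in this comparison (median 1.90), and their summed level ran from -2.56 to -1.84 in control rats and from -1.21 to 4.25 on 30% sucrose. Without the pair of rats Cxcr2, Csf3r, S100a8 and S100a9 were still called, at 1.62, 1.37, 2.01 and 1.93 (adjusted p of 0.00758 or below). Red blood cell markers had 2 of 6 called higher, with summed levels of 5.67 to 8.16 in control rats and 6.11 to 9.49 on 30% sucrose. Alas2, called among them, lost its call without the pair of rats (1.23, adjusted p = 0.141). Lymphocyte markers had 2 of 5 called higher, with -0.86 to -0.31 and 0.06 to 0.85, and macrophage markers 1 of 6, Csf1r at 0.69 (adjusted p = 0.0177), with 3.20 to 4.11 and 3.69 to 4.88. With the slide block none of these marker calls held (adjusted p = 0.9998 for each): Csf3r went from 1.54 to 0.19 and Cd3d from 1.04 to 0.27, Csf1r and Lck turned to -0.11 and -0.07, and S100a8 stood at 2.94 and 3.26. On low copper at 10% sucrose, where Cp was not called, 2 of 5 neutrophil markers were called higher as well (median 1.33, 5 of 5 above 0). Over all genes 18% were called higher there. Neither marker call held with the slide block, with Cxcr2 at 1.22 (adjusted p = 0.561) and Csf3r at 0.42 (adjusted p = 0.891). The part of these cells in the Cp difference was not tested.

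Marker lists of matrix-making and vessel cells were set beside the Lox difference, with 18.4% of all genes called higher as the background. Of 8 measured stellate cell and fibroblast markers 1 was called higher with 30% sucrose on adequate copper, Gfap at 0.998 (adjusted p = 0.00817), and the summed level ran from 4.88 to 5.67 in control rats and from 5.41 to 6.17 on 30% sucrose. Lum and Ngfr were below the filter. Smooth muscle markers had 1 of 5 called, Acta2 at 0.71 (adjusted p = 0.00481), and endothelial markers 1 of 7, Cdh5 at 0.86 (adjusted p = 0.00160), and the summed levels of both lists overlapped between the diets. Other markers lay the other way, among them Myh11 (-0.44), Tagln (-0.39) and Tek (-0.76), none called; 3 of 5 smooth muscle markers were below 0 (median -0.23), and the median summed endothelial level was 4.26 in control rats and 3.93 on 30% sucrose. Gfap, Acta2 and Cdh5 were also called higher on low copper at 10% sucrose (1.14, 0.75 and 0.78; adjusted p = 0.00350, 0.00316 and 0.00241), where Lox was not called. Gfap, Acta2 and Cdh5 stood at -0.31, 0.35 and 0.29 with the slide block for 30% sucrose, none called. On low copper at 10% sucrose, where 18% of all genes were called higher, the slide block gave them 0.35, 0.43 and 0.45. None was called there either (adjusted p = 0.931, 0.759 and 0.747). The part of these cells in the Lox difference was not tested.

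For the vesicular enzymes, 11 genes of catecholamine and peptide hormone processing were measured. With 30% sucrose on adequate copper 1 was called higher and 0 lower, beside 18.4% and 2.48% of all genes. The count of higher calls thus lay below the background. Pnmt, which makes adrenaline, rose by 0.79 with 30% sucrose on adequate copper (adjusted p = 0.0112; 0.26 in the slide-block fit), and Th, the first enzyme of noradrenaline synthesis, was at 0.33 (adjusted p = 0.0906). In the interaction Pnmt (-1.17) and Pcsk2 (-1.28) were called lower and Maoa (0.40) higher, beside 18.9% and 1.94% of all genes. None of these was called with the slide block (adjusted p of 0.308 or above). Without the pair of rats only Pnmt kept its call (adjusted p = 0.0282). Chga and Uchl1, markers of chromaffin cells and neurons, were below the filter. The adipocyte markers Adipoq, Lep, Plin1 and Fabp4 were below the filter too, and the remaining one, Cidec, a lipid droplet protein that fatty hepatocytes also make, fell by 0.58 (adjusted p = 0.0316; 0.0786 without the pair of rats) in the comparison in which Aoc3 was at -0.54.

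Each member was set beside the genes whose levels followed it most closely over the 24 rats, which share slides, diets and array scaling. For Cp the highest Pearson correlations were with C9, a terminal complement component made in liver (r = 0.92), an unnamed probe (0.91), C5 (0.87), Map3k8 (0.86) and LOC360228 (0.86). After the mean of each diet was subtracted, r was 0.91 for C9 and 0.83 for C5. Without the pair of rats, and with diet means not subtracted, r was 0.77 and 0.59. C9, C5 and Cp thus rose and fell together within diets too. Their correlation within diets without those 2 rats was not computed.

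For Loxl2 the closest genes were Cd93, an endothelial and myeloid receptor (r = 0.88, 0.90 after subtracting diet means), an unnamed probe, Serpinb6, Col1a2, a chain of type I collagen (0.82, 0.83) and Mrc1, the mannose receptor (0.82, 0.82). Aoc3 was closest to Cav1, caveolin of endothelium and fat cells (0.83, 0.84), RGD1305645, Efemp1, an elastic fibre protein (0.80, 0.78), Ahnak and Mrvi1. Heph was closest to Emp1 (0.84, 0.89), Ctsk, the collagen-degrading cathepsin K (0.83, 0.83), Slc25a4, a transcript without a symbol, and Pgm2. Without the pair of rats, and with diet means not subtracted, the correlations named here were 0.79 to 0.89.

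Lox was closest to Paqr7 (r = 0.84, 0.79 after subtracting diet means), Rassf6 (0.82, 0.75), Slc13a4 (0.82, 0.82), Afg3l2 (0.81, 0.75) and Gtf3c1 (0.80, 0.77), none of them a collagen or elastin gene. Pam was closest to Plcl1 (0.76, 0.78), Fam57b, Lrrk1, Clec2dl1 and Foxo3, all between 0.72 and 0.76. Loxl1 had no close companion, with Sema3b highest at r = 0.61 and rho = 0.32.

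Among the members themselves, Cp and Lox ran in opposite directions (r = -0.62, rho = -0.56 over 24 rats; -0.50 after subtracting diet means, -0.55 after subtracting slide means and -0.35 without the pair of rats). The pair had the 2 highest Cp levels and the 2 lowest Lox levels of the study. Heph and Loxl2 had r = 0.57 and Loxl2 and Aoc3 0.47, and without the pair 0.54 and 0.67.

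**Figure D4:**
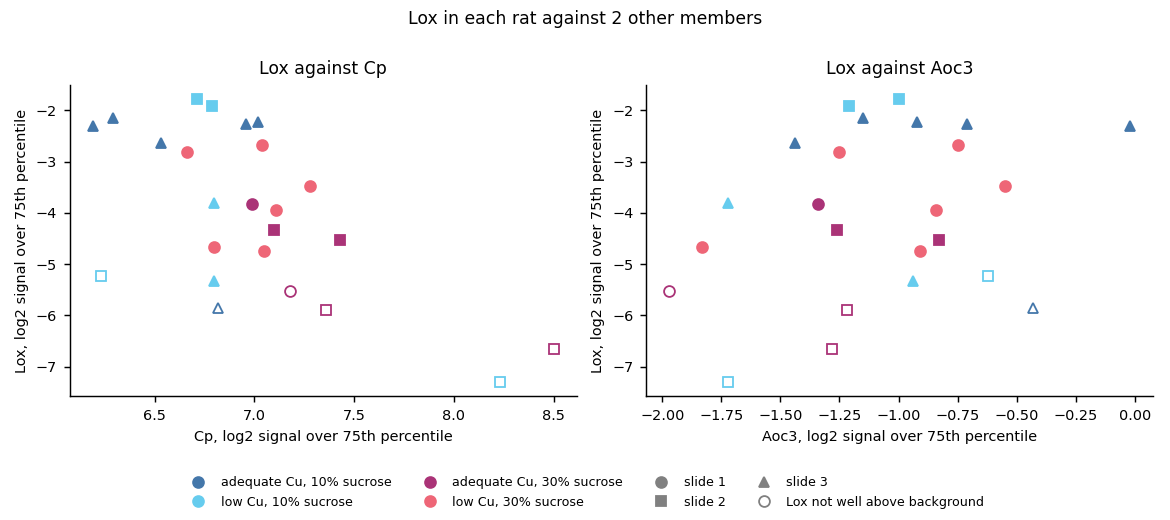
Lox is plotted on the vertical axis against Cp on the left and Aoc3 on the right, each as log2 signal relative to the array's 75th percentile, with a point per rat, colour for the diet, shape for the slide and open points where Lox was not well above background. The 2 rats with the highest Cp (8.50 and 8.23) have the lowest Lox (-6.66 and -7.30), and among the others Lox spreads from -5.89 to -1.78.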

How the data were processed

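Per the file headers, the authors read 1-colour arrays with Agilent Feature Extraction 10.7.3.1 (protocol GE1_107_Sep09), and probe positions refer to rn4. The processed signal the authors deposited is an intensity from which that software had removed background, without scaling across arrays and with surrogate values for weak spots, so levels of dim probes are uncertain. The authors' deposited series table is a score centred on a median of 0 in each array and spread to an interquartile range of 1. Its ranks follow the mean signal, how it was scaled is not given in the sources used here, and it served only as an alternative, multiplied by 661.9, raised by 73.33, floored at 5 and put on a log2 scale, which is an assumption. The deposited spot marks are other values, used as marks.

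From these, the log2 processed signal minus each array's 75th percentile was averaged over a probe's spots, leaving out spots marked as outliers. Probes well above background on at least 6 of 24 arrays were kept (21179 of 30367), and the brightest stood for each gene name (18641 genes). A mean per diet was fitted over all rats (limma 3.58.1, R 4.3.3), and figures drawn with matplotlib 3.10.9. The fit was tested on simulated data. The number of arrays limits the precision.

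The members and lists were chosen with earlier results of these data known. Every probe of the 8 members was named, from each list up to 4 genes per comparison with the smallest p, and per member the 5 genes with the highest Pearson correlation. The probes of Lox and the GPI form of Cp were not matched by accession to the RefSeq table (assembly GRCr8), and their array annotation was used. Rats with the same number were not paired by it: over 36 pairs of same-numbered rats the correlation of deviations ran from -0.29 to 0.36.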

Additional observations from a re-analysis of the deposited data

Results flagged for a closer look

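In 40 sets of 6 rats (10 probes on 4 diets), 6 sets held a rat that lay apart from the others of its diet by a gap that was large against the whole range of the set, and these were 4 different rats. Chance gives this in about 1 of 20 sets. Rat 5 on adequate copper with 30% sucrose had 8.50 for the secreted Cp probe (the next rat 7.43) and -4.57 for Dbh (next -6.55). Rat 2 on low copper with 10% sucrose had 8.23 for the same Cp probe (next 6.80). These 2 rats are the pair left out in the alternatives. Control rat 4 had -5.86 for Lox (next -2.63) and -7.35 for Loxl1 (next -5.51), neither well above background. Rat 5 on low copper with 30% sucrose had -3.47 for Loxl1 (next -5.19), and both spots of the Loxl1 probe on 1 array differed by up to 3.84.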

How the results depend on the processing

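The count of 0 members called on low copper (at 10% sucrose, at 30% sucrose and in the mean) and with 30% sucrose on low copper held under every alternative run: normexp background correction, quantile normalization, the authors' table, dropping the filter or asking it of all arrays, a slide block (fixed or random), a replicate block, mean of probes, array weights, fits of only the groups compared, and leaving out each rat or the pair. The pair and the gap between Cp probes were chosen after seeing the data. With 30% sucrose on adequate copper the count of 2 became 1 with normexp, quantile normalization, the authors' table, no filter, the filter on all arrays (which tests 4 members), the mean of probes and without the pair, and 0 with slide as a block, as a random block and with the replicate block, and lay between 0 and 2 with each rat left out. In the interaction it lay between 0 and 1. With the replicate block Cp had an adjusted p of 0.0589 and Lox 0.0774, and same-numbered rats share only a number. Cp lost its call with normexp (0.76, adjusted p = 0.0524), quantile normalization (0.80, 0.0650), the authors' table (0.80, 0.0671) and the mean of its probes (0.44, 0.0594), and Lox with no filter (adjusted p = 0.0585). Over 24 rats left out in turn adjusted p ran from 0.00915 to 0.111 for Cp and from 0.0129 to 0.123 for Lox. Signs turned for Loxl2 without rat 6 on low copper with 10% sucrose (0.109 and, in the interaction, -0.053, with -0.339 to 0.109 and -0.053 to 0.395 over all rats left out), and for the Cp gap on low copper at 10% sucrose without the pair or rat 2 (-0.055, with -0.055 to 0.579 over rats left out) and with 30% sucrose on low copper with quantile normalization (0.04), the authors' table (0.047) and without the pair or rat 2 (0.378, with -0.256 to 0.378); the cause was not tested. Genome-wide calls with 30% sucrose on adequate copper numbered 3888, against 0 with slide as a block, 1231 with it as a random block and 2267 to 2507 with normexp, quantile normalization, the authors' table and the filter on all arrays. On low copper at 10% sucrose they numbered 3469, against 0 with the block, 2286 with the random block and 1866 to 2058 under the latter 4, and in the interaction 3884, against 10 with the block, 1808 with the random block and 2294 to 2572 with the authors' table, quantile normalization and the filter. Where 0 genes were called over all, the slide block gave 20 on low copper at 30% sucrose and 6 with 30% sucrose on low copper (1 in the authors' table), array weights gave 875 for the mean copper difference, and leaving out 1 rat up to 19 and 41 for the mean copper difference and for 30% sucrose on low copper. The share called higher with 30% sucrose on adequate copper was 88.1%, against 67.5% with quantile normalization and 63.5% in the authors' table. On low copper at 10% sucrose it was 96.8%, against 81.5 and 79%, and in the interaction 9.29%, against 30.8 and 31.3%. Heph, Lox and Loxl1 lay near background, which limits their sizes.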
